A study of Mus musculus with 11 samples.

Results

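Nucleoporins build the nuclear pore, and nuclear transport receptors carry cargo through it; 47 of the 20352 genes on these mouse arrays belonged to this group. Members were taken by symbol, as genes annotated with a symbol that begins with Nup, Ipo or Xpo and a digit, or with Kpna, Kpnb or Tnpo, together with Ran, Ranbp1, Ranbp2 and Rcc1. No probeset naming Tpr alone was found, so Tpr was not analysed here. The 11 arrays held 5 keratoacanthomas, squamous skin tumours built of keratinocytes, and 6 normal skins. All 5 tumours came from mice with both the K14-Cre and the Zmiz1 transgene, in which the keratin 14 promoter drives Cre recombinase in basal keratinocytes and Zmiz1 is a transcriptional co-activator. Of the normal skins, number 1 and number 2 were from such double transgenic mice, 3 and 4 carried K14-Cre alone, and 5 and 6 carried the Zmiz1 transgene alone. The labels gave no age, strain or treatment, nor whether each piece was taken from a different animal. The p-values therefore measure the spread between these arrays, which may be technical.

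The pore is a stack of rings in the nuclear envelope. An outer ring, whose Y-shaped complex faces the cytoplasm and the nucleus, and an inner ring form the scaffold, and nucleoporins rich in phenylalanine-glycine (FG) repeats fill the channel. Importins bind cargo in the cytoplasm and release it in the nucleus, where the small GTPase Ran is loaded with GTP, and exportins bind cargo together with Ran-GTP and release it outside. In growing tissue this machinery carries histones, ribosomal proteins, ribosome precursors and messenger RNA, and Ran, importin beta and several nucleoporins also act in mitosis, when the envelope opens.

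The group was higher in the tumours as a whole. Of the 47 members, 35 were higher and 0 lower in keratoacanthoma than in normal skin (limma, Benjamini-Hochberg adjusted p below 0.05 over all genes), while 14.5% of all genes tested were higher and 10.8% lower (25.3% in either direction). The members were brighter than most genes, with a median level at percentile 81.1. Without the genes whose mean lay below the 25th percentile, 35 of 44 members were higher and 0 lower. In that fit 2985 of all 15264 genes were higher and 1954 lower. The median log2 difference was 0.51 over the members and -0.04 over all genes. In 25 members all 5 tumours stood above all 6 normal skins, which 9.66% of all genes did, and in 0 members did all tumours stand below, as 6.31% of all genes did. The changes were mostly modest. In 21 members the level was at least 1.5-fold higher, against 10.1% of all genes, and 4 members, Kpna2, Ran, Xpo4 and Kpnb1, reached 2-fold, against 3.49% of all genes. A difference of 1 on the log2 scale is 2-fold, and a gene level is the median log2 intensity over the gene's probesets. Under the alternative settings described below, the differences of Ran, Xpo4 and Kpnb1 fell as low as 0.75, 0.84 and 0.77. That of Kpna2 stayed at 1.54 or more.

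**Figure D1:**
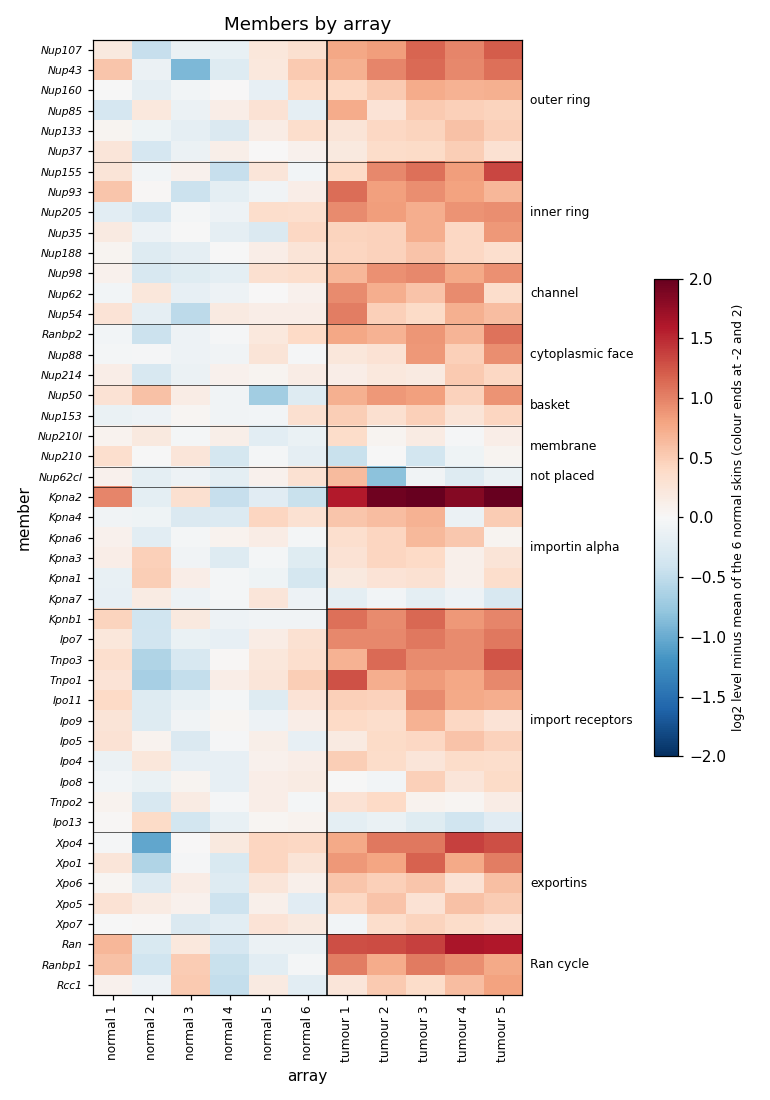
Level of each of the 47 members (vertical axis, ordered by role) on each of the 11 arrays (horizontal axis) as log2 level minus the mean of the 6 normal skins, with red higher and blue lower. The 5 tumour columns are red for nearly all scaffold, channel and carrier genes, and pale or blue for Nup210, Nup210l, Kpna7 and Ipo13.

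The tissue labels and the make-up of the pieces were checked with marker lists. Over 10 keratinocyte markers the mean log2 level was 10.4 to 10.5 in the tumours and 9.49 to 10.1 in normal skin. Of these 4 were higher, 1, Krt15, was lower (-0.54, adjusted p = 0.028), and 5 did not pass. All 20 skeletal muscle markers were lower in the tumours, whose means were 5.45 to 6.86 against 9.84 to 11.2 in normal skin, and 8 of 10 fat cell markers were lower. Of 12 fibroblast markers 5 were lower (means of 7.24 to 8.13 against 8.27 to 8.89), of 15 leukocyte markers 3 were higher and 4 lower, and of 8 endothelial markers 2 were higher and 1 lower. All 24 mitosis and G2 phase markers were higher, with means of 7.48 to 7.61 in the tumours. On this list normal skin 1 (7.08) and normal skin 3 (6.65) stood above the other normal skins (5.70 to 5.91). The same normal skins were highest in the mean of 19 hair keratins, of the hair shaft and the inner root sheath. They stood at 9.39 and 9.08 against 5.64 to 5.76 in the other normal skins. On this list keratoacanthoma 4 stood at 8.27 against 5.75 to 6.02 in the other tumours. In bulk tissue, fewer cells of a type and less RNA per cell cannot be told apart, and the part of muscle, fat, fibroblasts and dividing cells in the results on the members was not tested. Without normal skins 1 and 3, which were left out together after the data were seen, 32 members were higher and 0 lower, while 2826 of all 20352 genes were higher and 2187 lower in that fit.

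Promoter sequences of 38 members, 45 in all, were matched by symbol in a RefSeq table of build GRCm38.p6. The 250 bases before the start are printed for the member with the largest rise among the importin alpha adaptors (Kpna2), the import receptors (Kpnb1), the Ran cycle (Ran) and the outer ring (Nup107), and for Xpo1, the receptor of the leucine-rich export signal, because each of these genes was higher in the tumours. Capitals mark the searched motifs.
Kpna2, chr11:106999526-106999775, minus strand: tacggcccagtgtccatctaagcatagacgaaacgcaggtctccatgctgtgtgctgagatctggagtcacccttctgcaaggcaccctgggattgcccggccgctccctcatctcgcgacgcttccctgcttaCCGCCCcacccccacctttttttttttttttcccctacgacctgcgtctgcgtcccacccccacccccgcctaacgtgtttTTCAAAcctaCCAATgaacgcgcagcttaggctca
Kpnb1, chr11:97187893-97188142, minus strand: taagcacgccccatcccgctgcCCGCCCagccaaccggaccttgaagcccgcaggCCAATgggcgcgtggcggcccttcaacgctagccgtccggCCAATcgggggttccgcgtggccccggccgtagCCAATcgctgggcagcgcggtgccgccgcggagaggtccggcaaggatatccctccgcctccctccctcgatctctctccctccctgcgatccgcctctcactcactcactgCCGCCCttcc
Ran, chr5:129019906-129020155, plus strand: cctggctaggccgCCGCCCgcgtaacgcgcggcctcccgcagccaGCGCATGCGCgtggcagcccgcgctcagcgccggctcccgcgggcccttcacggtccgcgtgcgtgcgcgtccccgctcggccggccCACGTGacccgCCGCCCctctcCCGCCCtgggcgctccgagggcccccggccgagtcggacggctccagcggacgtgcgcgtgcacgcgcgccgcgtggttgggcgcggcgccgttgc
Xpo1, chr11:23255791-23256040, plus strand: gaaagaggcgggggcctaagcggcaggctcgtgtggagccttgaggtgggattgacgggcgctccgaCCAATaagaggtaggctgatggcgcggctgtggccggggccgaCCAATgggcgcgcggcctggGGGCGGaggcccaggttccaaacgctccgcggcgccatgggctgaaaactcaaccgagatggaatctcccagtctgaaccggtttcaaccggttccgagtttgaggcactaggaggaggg
Nup107, chr10:117792706-117792955, minus strand: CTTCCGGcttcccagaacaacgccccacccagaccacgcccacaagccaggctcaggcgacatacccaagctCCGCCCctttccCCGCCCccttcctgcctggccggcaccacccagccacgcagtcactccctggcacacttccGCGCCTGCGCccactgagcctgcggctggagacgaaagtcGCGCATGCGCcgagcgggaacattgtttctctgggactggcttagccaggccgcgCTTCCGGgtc

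Each motif was searched on both strands from 250 bases before to 50 after the start. They were the CCAAT box, the GC box GGGCGG, the E-box CACGTG, the ETS motif CCGGAAG, the NRF1 motif and the cell cycle element CHR, here TTTGAA. A match is a description of the letters and not a binding site. The Kpnb1 stretch held 3 CCAAT boxes, beginning 195, 155 and 122 bases before the start. In Kpna2, a CCAAT box at 25 bases and a CHR at 35 bases lay next to each other. The Nup107 stretch held 2 ETS and 2 NRF1 matches, and the Ran stretch 3 GC boxes, 1 E-box and 1 NRF1 match. Of the 45 member promoters 24 held a CCAAT box (53.3%, against 37.4% of all 32851 promoters in the table) and 29 a GC box (64.4% against 35.7%). An E-box was in 8 (17.8% against 7.15%), an ETS motif in 7 (15.6% against 8.86%), an NRF1 motif in 7 (15.6% against 4.60%) and a CHR in 10 (22.2% against 17.9%). The 7 promoters with an ETS motif and the 7 with an NRF1 motif were all among the 36 promoters of members that were higher, and 0 of the 9 promoters of the other members held either. As 36 of the 45 promoters were of higher members, few matches could fall among the other 9. The 0 therefore cannot tell higher members from the others. The GC box, ETS and NRF1 motifs are rich in G and C, the promoters were not matched for base composition, and these shares describe the sequences and were not tested.

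All 6 outer ring members of the Y complex were higher. Nup107 led them, at 7.24, 7.30, 7.63, 7.45 and 7.68 in keratoacanthomas 1 to 5, against a lowest, median and highest normal skin of 6.01, 6.50 and 6.79. The groups were apart. The rise of Nup107 was 1.00 on the log2 scale, or 1.99-fold, with an SE of 0.15 and a limma adjusted p of 0.00041. Nup43, a propeller-shaped subunit of the complex, rose by 0.98 on the log2 scale (adjusted p = 0.0066) and all of its 8 probesets were higher in the tumour mean. It also had a wide spread over normal skin (SD 0.55, n = 6), with normal skin 3 lowest at 5.72. Nup160, a long scaffold arm of the Y, rose by 0.62, Nup85 by 0.49, Nup133, at the stem of the Y, by 0.43 and Nup37 by 0.35. Nup37 lay nearest to 0 in this ring (95% interval 0.11 to 0.59, adjusted p = 0.037), and it missed the threshold under 11 of 22 alternative settings.

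All 5 inner ring members were higher as well. Nup155, a scaffold protein that contacts the membrane, stood at 7.27, 7.85, 7.97, 7.72 and 8.21 in the tumours and at 6.41 (lowest), 6.89 (median) and 7.14 (highest) in normal skin. Its log2 difference of 0.93 (SE 0.17, adjusted p = 0.0016) came with the widest spread among tumours of this ring (SD 0.35, n = 5). The tumours ran from 7.27 in keratoacanthoma 1 to 8.21 in keratoacanthoma 5. Nup205, a large solenoid protein, was tighter, at 7.40, 7.29, 7.19, 7.36 and 7.39 in the tumours against 6.12 (lowest), 6.39 (median) and 6.82 (highest) in normal skin. The difference for Nup205 was 0.87 (SE 0.13, adjusted p = 0.00050), and the groups did not overlap. Its paralog Nup188 differed less, at 0.45 (95% interval 0.21 to 0.68, adjusted p = 0.0087), and the lowest tumour lay 0.08 above the highest normal skin. Nup93, the adaptor that holds the inner ring together, rose by 0.87 and Nup35 by 0.58. In Nup35 the lowest tumour lay only 0.00098 above the highest normal skin, and Nup35 did not pass in 3 of 22 alternative settings.

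The channel nucleoporins rose in each of 3 members. Nup98, which carries glycine-leucine-FG repeats and also has roles in gene regulation, stood at 7.94, 8.18, 8.23, 8.02 and 8.18 in the tumours. In normal skin its lowest, median and highest levels were 6.94, 7.21 and 7.62, with no overlap. The log2 difference was 0.84 (SE 0.14, adjusted p = 0.00080), and 33 of its 34 probesets were higher in the tumour mean. Nup62 and Nup54, which form a coiled-coil complex in the channel, rose by 0.71 and 0.64. The level of Nup62 rested on 2 probesets.

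At the cytoplasmic face 2 of 3 members were higher. Ranbp2, the filament protein that binds Ran and acts as a SUMO ligase, stood at 8.34, 8.26, 8.44, 8.24 and 8.65 in the tumours and at 7.14 (lowest), 7.52 (median) and 7.96 (highest) in normal skin. The groups did not overlap, and the log2 difference was 0.82 (SE 0.14, adjusted p = 0.00099). Nup88 rose by 0.56 (adjusted p = 0.011), and its binding partner Nup214 differed by 0.29 without passing (95% interval 0.04 to 0.55, adjusted p = 0.082). Both measured basket members were higher. Nup50, a mobile cofactor of importin alpha, stood at 7.81, 7.96, 7.92, 7.55 and 7.99 in the tumours and at 6.40 (lowest), 7.13 (median) and 7.68 (highest) in normal skin. Keratoacanthoma 4 lay below normal skin 2, so that the groups overlapped, and the difference was 0.75 (SE 0.19, adjusted p = 0.012). Nup153, an FG nucleoporin of the basket, rose by 0.40 (adjusted p = 0.013).

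The 2 membrane nucleoporins taken by the symbol rule showed no call. They do not stand for the whole membrane part of the pore. Ndc1, which anchors the pore in the membrane but falls outside the rule, was higher (0.96, limma adjusted p = 0.0014). Nup210, a glycoprotein that spans the envelope, differed by -0.17 (95% interval -0.48 to 0.14, adjusted p = 0.43), and 15 of its 42 probesets were higher in the tumour mean. Its relative Nup210l (0.14, adjusted p = 0.39) and Nup62cl, which is named for its likeness to the end of Nup62 (-0.13, adjusted p = 0.69), were dim. Together with Kpna7 they were the 3 members whose mean lay below the 25th percentile of gene means (5.19).

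**Figure D2:**
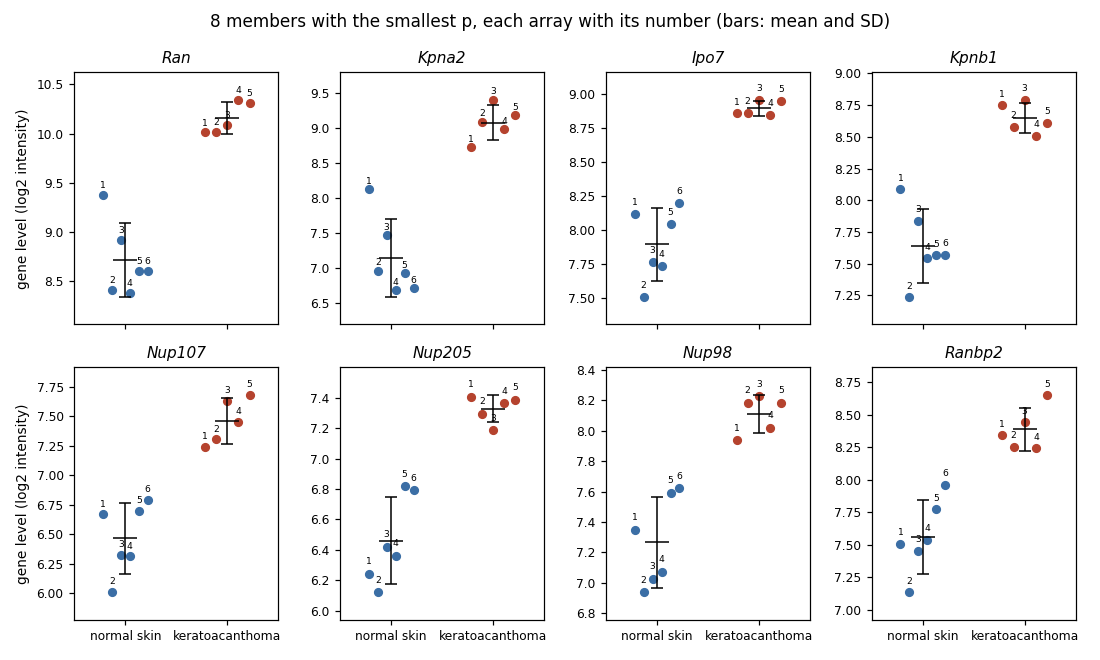
Log2 gene level (vertical axis) of the 8 members with the smallest p on each array, with normal skin in blue and keratoacanthoma in red, the array's number beside each point, and bars for the mean and SD. No panel shows an overlap of the groups, and normal skin 1 is the highest normal skin for Ran, Kpna2 and Kpnb1, while normal skin 6 is the highest for Ipo7, Nup107, Nup98 and Ranbp2 and normal skin 5 for Nup205.

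The importin alpha adaptors, which recognise the classical nuclear localisation signal, spanned the widest range of differences among the roles, from -0.17 to 1.94. Kpna2 had the largest difference of all 47 members. It stood at 8.73, 9.09, 9.41, 8.98 and 9.18 in the tumours and at 6.68 (lowest), 6.94 (median) and 8.13 (highest) in normal skin, without overlap. The log2 difference was 1.94 (SE 0.24, adjusted p = 9.4e-05), or 3.83-fold, and 7 of its 8 probesets were higher. RefSeq lists a pseudogene, Kpna2-ps, so that some probes of Kpna2 may share signal with it. Kpna6, a widely expressed adaptor, rose by 0.40 (adjusted p = 0.023), but did not pass in 7 of 22 alternative settings. Kpna4 differed by 0.45 (adjusted p = 0.076), Kpna3 by 0.29 (0.13) and Kpna1 by 0.25 (0.21), and their 95% intervals reached up to 0.82, 0.58 and 0.54. Kpna7, the adaptor of egg cells and early embryos, differed by -0.17 at a dim level (adjusted p = 0.25).

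Of the 11 import receptors of the importin beta family, 8 were higher. Kpnb1, importin beta itself, which pairs with the alpha adaptors, stood at 8.75, 8.58, 8.79, 8.51 and 8.61 in the tumours, against 7.24 (lowest), 7.57 (median) and 8.09 (highest) in normal skin. Its log2 difference was 1.01 (SE 0.14, adjusted p = 0.00021), the groups were apart, and all 28 probesets were higher in the tumour mean. Ipo7, a carrier of ribosomal proteins and histones, was the most even member over the tumours, at 8.86, 8.86, 8.96, 8.85 and 8.95 (SD 0.05, n = 5). Normal skin lay at 7.51 (lowest), 7.91 (median) and 8.20 (highest), which gave a difference of 1.00 (SE 0.13, adjusted p = 0.00012) and the widest gap between the groups of all members, 0.65 from the lowest tumour to the highest skin. Tnpo3, the carrier of serine- and arginine-rich splicing factors, rose by 0.99 and Tnpo1, which carries RNA-binding proteins, by 0.92. Its close relative Tnpo2 differed by 0.19 and did not pass (95% interval -0.05 to 0.43, adjusted p = 0.24). Ipo11 rose by 0.67, Ipo9 by 0.43, Ipo5, another carrier of ribosomal proteins, by 0.40 and Ipo4, a histone carrier, by 0.36. Ipo5 did not pass in 6 and Ipo4 in 5 of 22 alternative settings. Ipo8, the nearest relative of Ipo7, differed by 0.21 (95% interval -0.05 to 0.47, adjusted p = 0.23). Ipo13, which moves cargo in both directions, was the member with the lowest difference, at -0.24 (95% interval -0.51 to 0.03, adjusted p = 0.18), and 3 of its 21 probesets were higher in the tumour mean.

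Among the exportins 4 of 5 were higher. Xpo4, which exports a translation factor, stood at 7.45, 7.73, 7.74, 8.06 and 7.97 in the tumours and at 5.65 (lowest), 6.79 (median) and 7.12 (highest) in normal skin. The difference was 1.10 (SE 0.23, adjusted p = 0.0036), and the groups were apart. Normal skin 2 was the lowest, and the other normal skins lay at 6.67 to 7.12. Xpo1, the general exportin of proteins and of ribosomal subunits, rose by 0.92 (adjusted p = 0.0019) and all 5 tumours were above all 6 skins. Xpo6, which exports actin, rose by 0.49 and Xpo5, which exports microRNA precursors, by 0.48, whereas Xpo7 differed by 0.28 (95% interval 0.00 to 0.56, adjusted p = 0.13).

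All 3 genes of the Ran cycle were higher. Ran itself stood at 10.01, 10.02, 10.09, 10.34 and 10.31 in the tumours and at 8.38 (lowest), 8.60 (median) and 9.37 (highest) in normal skin. The groups did not overlap, the log2 difference was 1.44 (SE 0.17, adjusted p = 6.6e-05), or 2.71-fold, and Ran had the smallest p of the members, rank 309 among all genes. The 5 probesets of Ran were all higher, but by 0.15 to 1.54 with a median of 0.41, so that the size of its rise depended on the probeset. Over the alternative settings the difference of Ran ran from 0.75 to 1.65. Ranbp1, which helps to hydrolyse GTP on Ran, rose by 0.90 (adjusted p = 0.0038). Rcc1, the chromatin-bound exchange factor that loads Ran with GTP, rose by 0.51 (95% interval 0.15 to 0.87, adjusted p = 0.037) with overlapping groups. In Rcc1 7 of 11 probesets were higher in the tumour mean, and it did not pass in 10 of 22 alternative settings.

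**Figure D3:**
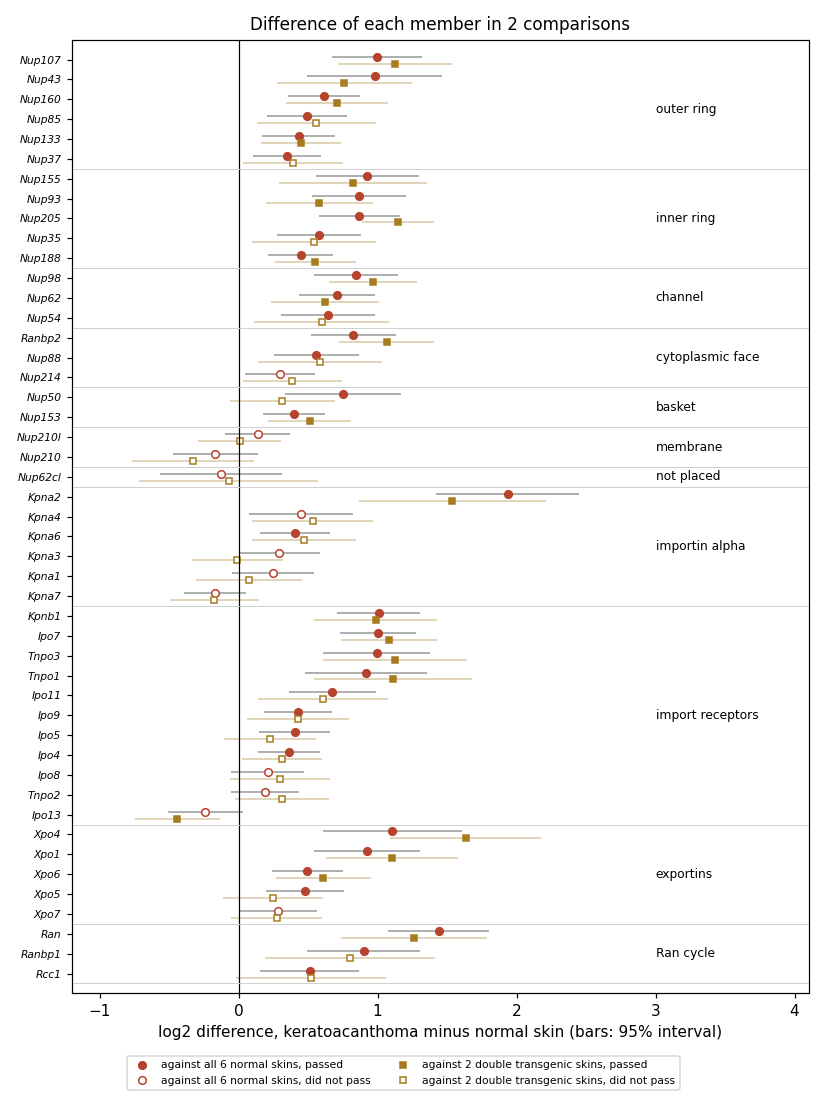
Log2 difference of each member (horizontal axis, with its 95% interval as a bar), ordered by role, for keratoacanthoma against all 6 normal skins (circles) and against the 2 double transgenic skins (squares), where filled symbols passed the limma test. Kpna2 and Ran lie farthest to the right among the circles, and Ipo13, Nup210, Kpna7 and Nup62cl lie left of 0.

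Normal skins did not order alike in all roles. The means of Ran, Ranbp1 and Rcc1 were 8.38 in normal skin 1 and 8.35 in normal skin 3, against 7.52 to 7.89 in the other normal skins and 8.79 to 8.99 in the tumours. Kpna2 was 8.13 and 7.47 in the same normal skins against 6.68 to 6.95 in the others. These were also the normal skins that were high in mitosis markers and hair keratins. The inner ring showed another order, with means of 6.65 in normal skin 1, 6.37 in normal skin 3 and 6.70, the highest, in normal skin 6. The outer ring was lowest in normal skin 3, at 6.55, and highest in normal skin 6, at 7.06. Over all 47 members the mean level was 7.51 to 7.61 in the tumours and 6.83 to 7.13 in normal skin. Without normal skins 1 and 3 the difference of Kpna2 was 2.26 and that of Ran 1.65, and those of Nup107 and Nup205 were 1.01 and 0.80. The tumours were more even than normal skin. The SD over normal skins exceeded that over tumours in 40 of the 47 members, as it did in 70.3% of all genes. The tumours were all double transgenic, while the normal skins came from double and single transgenic mice. The part of genotype in this spread was not tested.

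**Figure D4:**
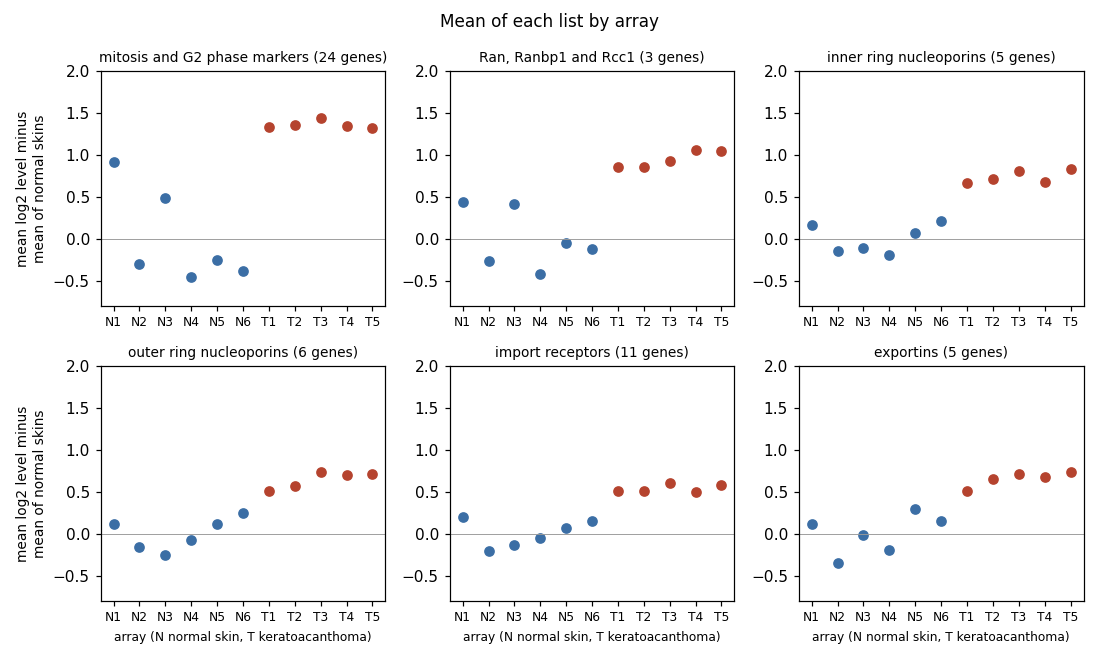
Mean log2 level of 6 gene lists on each array (horizontal axis, N for normal skin and T for keratoacanthoma), minus the mean of the normal skins. Normal skins 1 and 3 stand out in the mitosis markers and in the Ran cycle genes but not in the outer ring, and in each list all 5 tumours stand above all 6 normal skins.

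Tumours were also compared with the tumour-free skin of the same genotype, which asks whether the differences remain when both tissues carry both transgenes. In a model of 4 groups 21 of the 47 members were higher and 1 lower than in the 2 double transgenic skins, while 10.6% of all genes were higher and 6.93% lower (17.6% in either direction). This comparison uses the same tumours, and 2 of the same skins, as the first, so that it is no independent support. The median difference over the members was 0.55, against -0.05 over all genes. The largest differences were those of Xpo4 (1.63, adjusted p = 0.0020), Kpna2 (1.54, 0.0076), Ran (1.26, 0.0062) and Nup205 (1.14, 0.00030). Of the reference skins, normal skin 1 was the higher in mitosis markers and in hair keratins, as given above, and the part of either in these values was not tested. Without normal skin 2, normal skin 1 alone was the reference and was assumed to vary like the other groups. Then 6 members were higher and 0 lower, against 2.47% and 1.59% of all genes, Kpna2 differed by 0.95 (adjusted p = 0.11) and Ran by 0.78 (0.080) without passing, and Xpo4 (1.12) and Nup205 (1.08) passed. Without normal skin 1, with normal skin 2 alone as the reference under the same assumption, 22 members were higher, against 12.5% of all genes, and the differences were 2.12 for Kpna2 and 1.74 for Ran. With all arrays, Ranbp1 differed by 0.80 without passing (95% interval 0.19 to 1.42, adjusted p = 0.070) and Nup50 by 0.31 (95% interval -0.07 to 0.69, adjusted p = 0.24). The member that was lower was Ipo13, at -0.44 with an adjusted p of 0.05 just under the threshold. Its call was lost under every alternative run on this comparison except the one without normal skin 1, where normal skin 2 alone, the highest normal skin for Ipo13, was the reference (-0.62, adjusted p = 0.021). With the mean over probesets 37 members were higher, as were 2844 of all 20352 genes.

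Tumour-free skin of double and of single transgenic mice was compared next, and the double transgenic arrays are those of the same-genotype comparison. Between the 2 double and the 4 single transgenic skins 0 of 47 members passed in limma (of all genes 0.00983% were higher, 0.00491% lower and 0.0147% either), and the smallest adjusted p was 0.34. An unadjusted p below 0.05 was found for 6 members (12.8%) and for 10.2% of all genes, so that the members' share was near that of all genes. The differences ran from -0.79 for Xpo4 to 0.66 for Nup50, and the intervals were wide, for example -1.35 to -0.23 for Xpo4 and -0.10 to 1.29 for Kpna2. Xpo4 passed without normal skin 1 (-1.30, adjusted p = 0.028), when normal skin 2 alone stood for its group and was assumed to vary like the others.

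Most single probesets of the members were higher, as most gene levels were, but the sizes could differ. The median probeset difference lay below the gene-level difference in some members (Ran, 0.41 against 1.44) and above it in others (Nup153, 0.65 against 0.40). Of the 1073 member probesets 872 (81.3%) were higher in the tumour mean, against 47.9% of all probesets used. In 17 of the 35 members that passed, at least 90% of probesets were higher, and the lowest share among the 35 was 63.6%, in Rcc1. These members were called on the median over the same probesets, so a majority of higher probesets is partly built in. Such shares were not computed for the called genes of the whole table, so they are no separate support. Probesets of a gene share its RNA and are not independent.

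Genes of the same pathway outside the symbol rule were read from lists chosen by function. Over all genes 14.5% were higher and 10.8% lower. Of 10 measured nucleoporins with other symbols, 7 were higher and 0 lower, with a median of 0.63 against -0.04 over all genes. They were led by Nupl1, the partner of Nup62 and Nup54 in the channel (1.21, adjusted p = 0.00012), Aaas, a cytoplasmic-face nucleoporin (0.97), and Ndc1, which anchors the pore in the membrane (0.96). Of 13 other transport receptors and Ran factors 4 were higher and 0 lower, with a median of 0.31. They included the transfer RNA exportin Xpot (1.03, adjusted p = 6.0e-05), Rangap1, which activates GTP hydrolysis by Ran (0.65), and Cse1l, which returns importin alpha to the cytoplasm (0.54). This count was 2 without keratoacanthoma 3, without keratoacanthoma 4, without normal skin 4 or without normal skin 5, and 1 under quantile normalization.

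Of 19 messenger RNA export genes 10 were higher and 0 lower, with a median of 0.40. Among them were Zc3h11a (0.83), the export receptor subunit Nxt1 (0.81) and the adaptor Alyref (0.80). Without normal skin 2, 1 gene of this list was lower. The nuclear envelope and lamina list went both ways, with 4 of 16 higher, 3 lower and a median of 0.20. All genes also went both ways, with 14.5% higher and 10.8% lower, and whether this short list differed from those shares was not tested. Tmpo (0.94) and Emd (0.91), which code for LEM-domain proteins of the inner membrane, and Tor1aip2, a membrane partner of torsin (0.40), were higher, while Syne1 (-0.61) and Syne2 (-0.57), which link the nucleus to the cytoskeleton, were lower. Syne1 is also expressed in skeletal muscle, whose markers were lower in every one of 20 genes, and the part of muscle in these falls was not tested.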

How the data were processed

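Expression was measured on 11 mouse whole-transcript arrays. Per the labels' protocols, RNA of snap-frozen tissue was amplified with the SPIA method and labelled with biotin. Log2 values of 241576 probesets were deposited by the authors. The submitters' processing notes name RMA, Partek and build mm9, with versions and settings not given in the sources used here. They spanned 0.994 to 15.2 and each array's median lay between 6.22 and 6.27. The deposited normalization was kept. The number of arrays limits the precision.

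Probesets naming 1 gene in the array annotation were used (212097, less 590 with identical values), 2742 symbols were updated, and the median over probesets gave 20352 gene levels. The 47 members had 2 to 44 probesets each, and 4 probesets naming Nup85 and another gene were left out. All genes were fitted with lmFit and eBayes (limma 3.58.1 in R 4.3.3), with Benjamini-Hochberg adjustment and a threshold of 0.05, for 2 groups and for a model of 4 groups. The script was tested on simulated data. Tables used Python 3.11.15 and pandas 2.3.3.

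Every member is given with its role. For the largest rise and fall among called members of each role and the 8 members with the smallest p, each tumour value is given. Normal skin is given for them as its lowest, median and highest level. Related lists name up to 3 rises and 2 falls. Members and lists were chosen with earlier results of these data known. Alternatives changed the gene summary, filters, scaling, eBayes, array weights, replicate block, reference and arrays.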

Additional observations from a re-analysis of the deposited data

Results flagged for a closer look

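In 4 of 94 groups of arrays tested over the members, 1 array stood far from the rest of its group by a gap test at the 95% level, where chance gives about 1 in 20. Kpna4 was at 7.11 in keratoacanthoma 4, against 7.73 to 7.92 in the other tumours, and passed the tumour comparison without that array. Nup160 was at 7.69 in normal skin 6 and at 7.12 to 7.30 in the other normal skins. Nup88 was at 7.77 in normal skin 5, against 7.40 to 7.49. Xpo4 was at 5.65 in normal skin 2, against 6.67 to 7.12.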

How the results depend on the processing

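Against all normal skins, the count of members higher stayed within 1.5 times of 35 under every alternative except 1. With only double transgenic skin as reference, which leaves 7 arrays, it was 18. It was 26 after quantile normalization, 29 with the title's number as a replicate block, and 31 to 35 with each array left out. Of all 20352 genes, 2408, 2596 and 2406 to 2942 were higher under these settings, against 2959 in the main fit. The count of members higher was 32 without normal skins 1 and 3, an alternative chosen after seeing the data. The count of members lower was 0 throughout. Deviations from the group means correlated at -0.18 to 0.10 between a tumour and a normal skin with the same title number. Tumours and normal skins numbered 3, 4 and 5 differed in genotype, so that a shared number there cannot mean the same mouse. For numbers 1 and 2, of the same genotype, the correlations cannot tell whether the pieces came from the same mouse. Of the 35 members, 15 passed under every alternative that tested them, 20 lost the call under some, and 0 changed direction; 7 members not called passed under some. Differences that changed sign were those of Kpna3 with the double transgenic reference (-0.0093), Nup210l without dim probesets (-0.18), and Nup62cl without dim probesets (0.22). With each array left out Nup62cl ran from -0.32 to 0.045, above 0 without keratoacanthoma 2 only.

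With the double transgenic reference the whole table gave 1942 genes higher and 1244 lower, other transport receptors 1 higher, messenger RNA export 4 higher, and the nuclear envelope 2 higher and 1 lower. Other transport receptors gave 1 after quantile normalization and 2 to 5 with each array left out. The nuclear envelope gave 2 higher without dim probesets or after quantile normalization, and messenger RNA export 1 lower with array weights and 0 to 1 with each array left out. In the same-genotype comparison members higher were 37 with the mean over probesets and 6 to 22 with each array left out. Members lower were 0 with the mean, with trend and robust or after centring, and 0 to 1 with each array left out. Between normal genotypes members lower were 0 to 1 with each array left out. Levels below the 25th percentile limit Nup62cl, Nup210l and Kpna7.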
